A study of Mus musculus with 8 samples.

Results

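Of the 8 libraries of left ventricular RNA in the series, 5 carried abundant transcripts of the atrial light chain gene Myl7 and 3 carried hardly any, and the description below sets the 5 against the 3. The libraries were selected on their measured Myl7 level, given as CPM, the count divided by the library's total and multiplied by 1000000. Those above 100 CPM form the Myl7-high set, which holds HFD+L-NAME 2, 3 and 4 and chow 1 and 3. Those below 20 CPM form the Myl7-low set, which holds HFD+L-NAME 1 and chow 2 and 4. No library lay between the limits. The Myl7-high library nearest to them was HFD+L-NAME 4 with 210 CPM, and the Myl7-low library nearest to them was HFD+L-NAME 1 with 9.77 CPM. Genes were then compared between the sets with diet as a covariate. Because the libraries were sorted by what they contained, differences between the sets are described without a test.

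In the study 4 mice received high-fat food together with 0.5% of the nitric oxide synthase inhibitor L-NAME (HFD+L-NAME) and 4 mice received normal chow, each for 9 weeks from 12 weeks of age. The strain is written C57BL/5NJ in the labels. The series design speaks of male and female mice and of NNT+/+ and NNT-/- animals, but the labels give neither sex nor genotype for any of these 8 libraries. Every library is 1 mouse by its label, and all 8 were labelled as left ventricle.

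Atrial and ventricular muscle build their contractile apparatus from partly different genes. Atrial cardiomyocytes use the light chains encoded by Myl7 and Myl4, restrain the calcium pump with sarcolipin (Sln) in place of most of the phospholamban (Pln) found in the ventricle, and store natriuretic peptide (Nppa) in secretory granules. Bmp10, a ligand of endothelial ALK1 receptors, is known in adult mice mainly from the right atrium, and Dkk3 encodes a secreted relative of the Wnt antagonists that is abundant in atrial muscle. Transcription factors such as Tbx5 and Nr2f2 help set atrial identity, whereas Myl2 and Irx4 mark the ventricle. In bulk tissue, more cells of a type and more RNA per cell cannot be told apart.

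The promoters of Myl7, which made the split, and of the secreted markers Nppa and Bmp10 are shown as the 250 bases before the start site, taken from RefSeq on GRCm38.p6 and read on the strand of the gene. RefSeq promoters were matched for 4 of the 6 marker genes. Capitals mark matches on either strand to the T-box motif AGGTGTGA, the MEF2 motif CTAAAAATA or the GATA motif AGATAA. The motifs share no overlapping match in these 3 windows. The Myl7 window on the minus strand (chr11:5898783-5899032) held none of them. The Nppa window on the plus strand (chr4:148000472-148000721) held 1 T-box match, on its opposite strand, and the Bmp10 window on the plus strand (chr6:87428744-87428993) held 2 GATA matches.
Myl7: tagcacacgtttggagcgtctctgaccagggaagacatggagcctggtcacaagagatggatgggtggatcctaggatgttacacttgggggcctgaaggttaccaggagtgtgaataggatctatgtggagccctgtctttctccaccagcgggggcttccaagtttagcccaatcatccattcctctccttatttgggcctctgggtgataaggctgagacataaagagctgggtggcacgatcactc
Nppa: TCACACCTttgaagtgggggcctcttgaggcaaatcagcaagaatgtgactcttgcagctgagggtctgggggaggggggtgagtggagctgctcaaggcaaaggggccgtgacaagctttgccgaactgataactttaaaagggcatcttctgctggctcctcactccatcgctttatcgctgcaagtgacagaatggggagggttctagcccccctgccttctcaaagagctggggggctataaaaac
Bmp10: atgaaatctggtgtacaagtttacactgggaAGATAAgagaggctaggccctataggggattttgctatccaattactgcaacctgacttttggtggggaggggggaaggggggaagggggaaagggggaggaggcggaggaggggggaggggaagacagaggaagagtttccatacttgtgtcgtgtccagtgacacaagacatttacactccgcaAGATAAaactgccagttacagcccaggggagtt
Of 32851 mouse promoter windows of this length, 1.12% held the T-box letters, 0.469% the MEF2 letters and 9.99% the GATA letters. A match is a description of letters and not of a bound site.

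Total counts ranged from 31522074 to 41047658 in the 4 HFD+L-NAME libraries and from 41852705 to 52053633 in the 4 chow libraries. Ventricular Myl2 was abundant in every library, at 4973 to 7350 CPM, so the labelled tissue was present throughout. Some libraries stood apart in genes outside the atrial lists, chosen here after their values were seen. Esr1, the oestrogen receptor alpha gene, was at 4.79 CPM in library HFD+L-NAME 1 and 579 CPM in library HFD+L-NAME 2, against 1909 to 3439 CPM in the other 6 libraries. Pttg1, which encodes securin, was at 32.4 to 64.4 CPM in the 5 Myl7-high libraries and at 57.4 CPM in HFD+L-NAME 1, against 2.18 and 2.995 CPM in chow 2 and 4. In chow, the split by Myl7 is therefore also a split by Pttg1. HFD+L-NAME 2 and 3 held the highest levels of the fat cell genes Adipoq (5.60 and 3.81 CPM) and Plin1 (12.4 and 9.14 CPM), against at most 1.44 and 2.50 CPM elsewhere. The part of these differences in the results below was not tested beyond leaving the libraries out.

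All 6 atrial markers were higher in every Myl7-high library than in any Myl7-low library, a fact that for Myl7 the rule itself fixes. Myl7 had 709, 306 and 210.3 CPM in libraries HFD+L-NAME 2, 3 and 4 and 297 and 282 CPM in chow 1 and 3, against 9.77 CPM in library HFD+L-NAME 1 and 0.714 and 0.985 CPM in chow 2 and 4. The essential light chain gene Myl4 followed at 832, 339 and 217 CPM in libraries HFD+L-NAME 2, 3 and 4 and 341 and 327 CPM in chow 1 and 3, against 15.4 CPM in library HFD+L-NAME 1 and 3.99 and 4.08 CPM in chow 2 and 4. HFD+L-NAME 2 was the highest Myl7-high library for both light chains, and HFD+L-NAME 1 was the highest Myl7-low library. Sln, the atrial inhibitor of the calcium pump, had 219, 125 and 90.0 CPM in libraries HFD+L-NAME 2, 3 and 4 and 169.7 and 94.8 CPM in chow 1 and 3, against 2.46 CPM in library HFD+L-NAME 1 and 0.154 and 0.923 CPM in chow 2 and 4. With diet as a covariate the fitted log2 differences, Myl7-high minus Myl7-low, were 6.65 for Myl7, 5.61 for Myl4 and 6.85 for Sln. Over all genes tested the median of this difference was -0.00017.

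The secreted markers showed the same order of the sets but varied more among themselves. Nppa, the precursor of atrial natriuretic peptide, had 2497, 929 and 473 CPM in libraries HFD+L-NAME 2, 3 and 4 and 1298 and 1326 CPM in chow 1 and 3, against 129.9 CPM in library HFD+L-NAME 1 and 144 and 298 CPM in chow 2 and 4. It never approached 0 in the Myl7-low libraries, and its fitted log2 difference was 2.81. Dkk3 had 94.1, 83.0 and 36.5 CPM in libraries HFD+L-NAME 2, 3 and 4 and 76.1 and 50.8 CPM in chow 1 and 3, against 7.58 CPM in library HFD+L-NAME 1 and 2.62 and 5.46 CPM in chow 2 and 4, a log2 difference of 3.58. Bmp10 had 2.63, 68.5 and 32.7 CPM in libraries HFD+L-NAME 2, 3 and 4 and 76.7 and 133 CPM in chow 1 and 3, against 0.137 CPM in library HFD+L-NAME 1 and 0.0772 and 0.308 CPM in chow 2 and 4, a log2 difference of 8.84. HFD+L-NAME 2, the library with the most Myl7, was thus the lowest of the Myl7-high libraries for Bmp10.

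**Figure D1:**
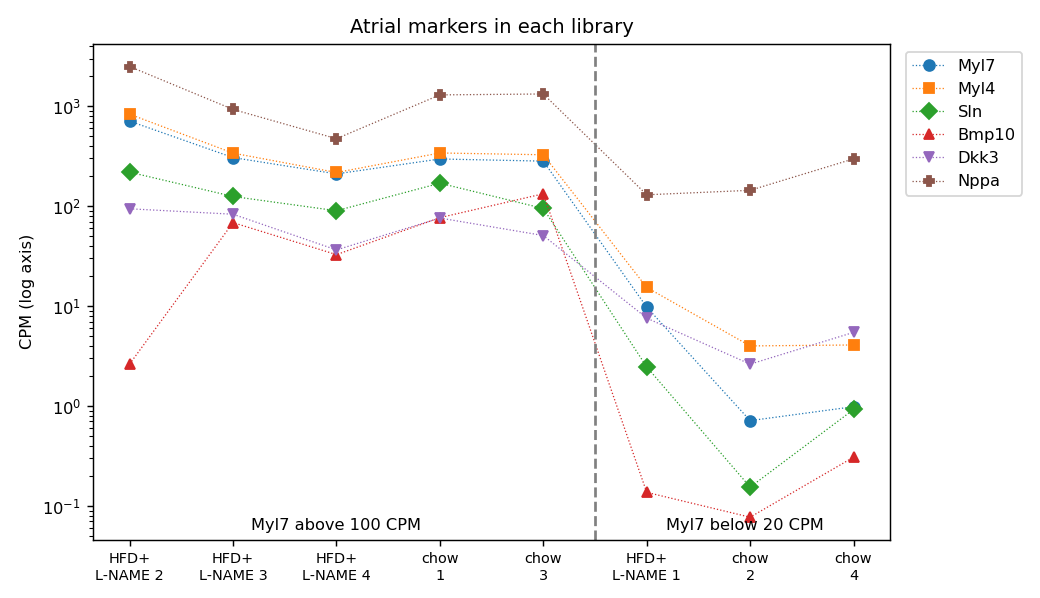
CPM (log axis) of the 6 atrial markers in each of the 8 libraries, with the 5 Myl7-high libraries left of the dashed line and the 3 Myl7-low libraries right of it. Each point is 1 library and dotted lines join points of a gene. Bmp10 falls to 2.63 CPM in HFD+L-NAME 2 while Myl7 is highest there, and HFD+L-NAME 1 has the most Myl7 of the libraries below 20 CPM.

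The Myl7-low libraries were not at 0. Myl7 was counted 357 times in HFD+L-NAME 1, a level of 9.77 CPM with an exact 95% Poisson interval from 8.78 to 10.8, and 37 and 48 times in chow 2 and 4, with intervals from 0.503 to 0.984 and from 0.726 to 1.31 CPM. These intervals cover counting error only. Bmp10 rested on 5 counts in HFD+L-NAME 1 and on 4 and 15 counts in chow 2 and 4. Sln had 90 counts in HFD+L-NAME 1 and 8 and 45 counts in chow 2 and 4. Relative to the ventricular light chain Myl2, Myl7 counts came to 14.0%, 6.16% and 2.86% in HFD+L-NAME 2, 3 and 4 and 4.07% and 4.32% in chow 1 and 3, against 0.142% in HFD+L-NAME 1 and 0.0103% and 0.0135% in chow 2 and 4. These percentages are not corrected for transcript length and serve to compare libraries.

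Within the 5 Myl7-high libraries, some atrial genes kept a nearly fixed ratio to Myl7 and others did not. Myl4 ran at 117%, 111% and 103% of Myl7 in HFD+L-NAME 2, 3 and 4 and at 115% and 116% in chow 1 and 3, a 1.14-fold range. Mybphl, a myosin-binding protein H-like gene of atrial muscle, ran at 8.15% to 10.1% of Myl7, a 1.24-fold range, and the SH3-binding kinase gene Sbk3 at 9.64% to 14.2%, a 1.47-fold range. Sln spread 1.85-fold, Dkk3 2.04-fold and Nppa 2.09-fold. Bmp10 was at 0.371% of Myl7 in HFD+L-NAME 2, against 22.4% and 15.6% in HFD+L-NAME 3 and 4 and 25.9% and 47.1% in chow 1 and 3. That was a 127-fold range, the widest of the 8 ratios computed.

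**Figure D2:**
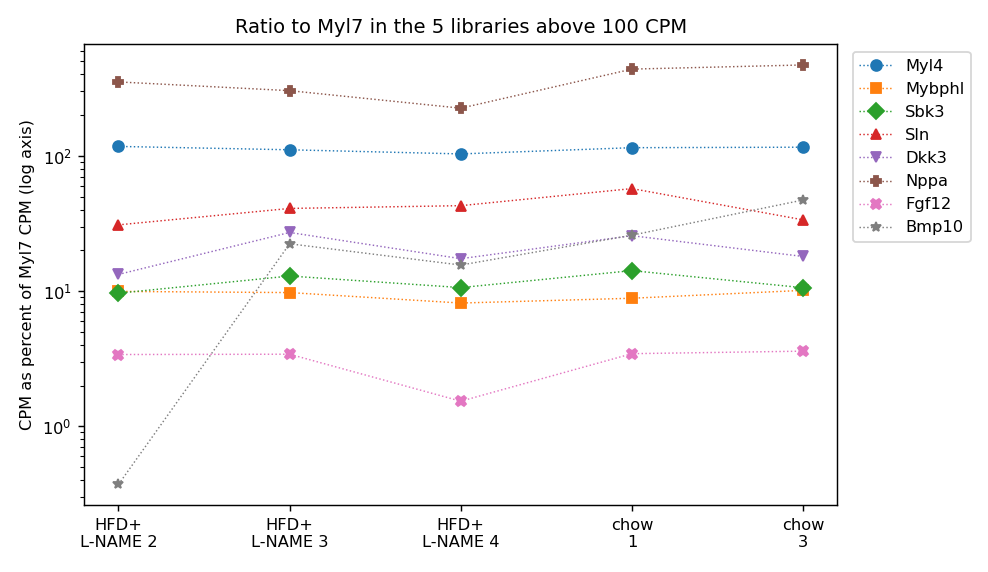
CPM of 8 atrial genes as a percentage of Myl7 CPM (log axis) in the 5 Myl7-high libraries, HFD+L-NAME left and chow right; each point is 1 library. Myl4, Mybphl and Sbk3 run nearly flat, while Bmp10 drops to 0.371% in HFD+L-NAME 2 against 15.6% to 47.1% in the other 4.

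The 145 genes with a name that were at least 2-fold higher without overlap were ranked by how closely they followed Myl7 among the Myl7-high libraries. The measure was the level above the mean of the Myl7-low libraries, divided by Myl7, and the spread was the highest over the lowest quotient in the 5 libraries. The median gene spread 4.43-fold, and 14 genes spread less than 2-fold. After Myl7 itself the closest were Myl4 (1.17-fold), Mybphl (1.26-fold), Sbk3 (1.46-fold) and Stard10, a phospholipid transfer protein gene (1.67-fold). Next came Rp1, a microtubule-associated protein gene (1.72-fold), Cilp2, a matrix protein gene related to cartilage intermediate layer protein (1.73-fold), the protease inhibitor gene Timp1 (1.76-fold), 2510046G10Rik (1.82-fold) and Fras1, a basement membrane protein gene (1.84-fold). The quotients of 2510046G10Rik, Rp1 and Timp1 rest on means of 0.543, 0.950 and 1.79 CPM over the 8 libraries. Likeness over 5 libraries says nothing of shared control.

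Of 14875 genes tested, 155 (1.04%) were at least 2-fold higher in the Myl7-high set with no overlap between the sets, and 31 (0.208%) were at least 2-fold lower. Without the fold limit, 765 genes (5.14%) lay higher with no overlap and 208 (1.40%) lay lower. In chow alone, 500 genes (3.36%) were 2-fold higher without overlap and 305 (2.05%) lower. In HFD+L-NAME alone, 928 genes (6.24%) were higher and 368 (2.47%) lower. Counts of higher and lower genes without each library in turn ran from 177 to 331 and from 38 to 98, and were highest without chow 2 for higher genes and without chow 4 for lower genes. Without HFD+L-NAME 2 and 3 there were 209 higher and 128 lower genes. This moved the share of higher genes to 62.0%, against 83.3% with all libraries. The low-count filter asked for a minimum level in at least 4 libraries, the size of a diet group. A gene present only in the 3 Myl7-low libraries could therefore not be tested, whereas a gene present only in the 5 Myl7-high libraries could. With no filter, 214 genes were higher and 90 lower, a share of higher genes of 70.4%.

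The 500 genes chosen as higher in the chow libraries were read in the HFD+L-NAME libraries, which the choice had not used. There, 165 (33.0%) were also 2-fold higher without overlap, against 6.24% of all genes tested, and 336 (67.2%) lay on the same side, against 52.0%. Without the fold limit, 210 (42.0%) lay higher without overlap, near the 37.0% of all genes. The median log2 difference of the 500 within HFD+L-NAME was 0.52, against 0.015 over all genes. The 500 include Myl7, whose HFD+L-NAME values the split used. The comparison with all genes was not matched for expression level. Of the 305 genes lower in chow, 40 (13.1%) were also 2-fold lower without overlap in HFD+L-NAME, against 2.47% of all genes. Without the fold limit, 76 (24.9%) lay lower without overlap, against 18.4%. A negative difference was found in 144 (47.2%), against 48.0%. The HFD+L-NAME reading rests on HFD+L-NAME 1 as its lone Myl7-low library.

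**Figure D3:**
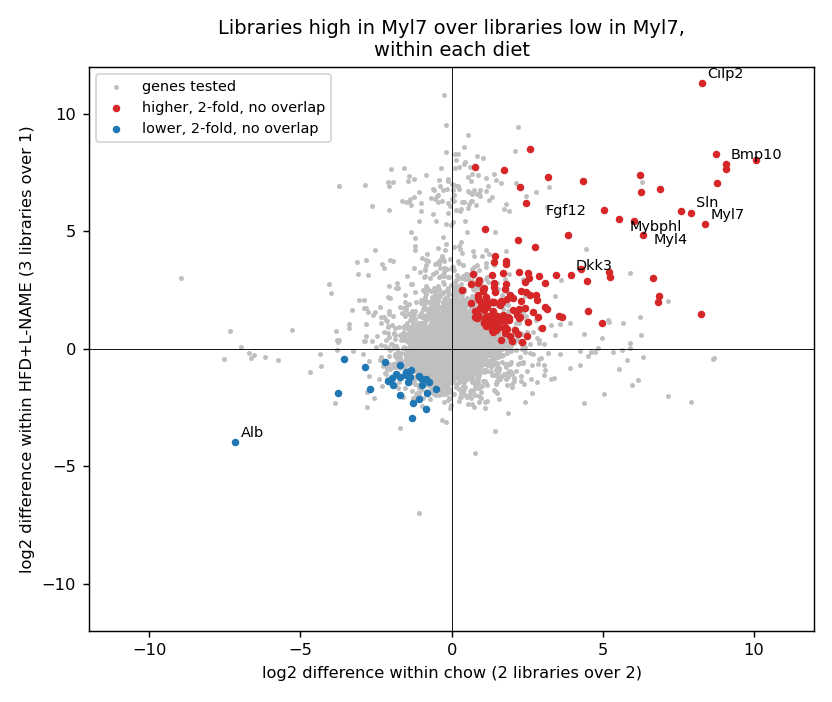
Log2 difference of Myl7-high minus Myl7-low libraries within HFD+L-NAME (vertical, 3 libraries over 1) against the same within chow (horizontal, 2 over 2), with 1 point per gene tested. Red and blue points are the 155 higher and 31 lower genes. The atrial markers lie far up the diagonal, and a grey column near 0 in chow reaches high values in HFD+L-NAME, where the Myl7-low set is 1 library.

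The list of atrial sarcomere and calcium pump genes holds Myl7, which made the split, and 7 other tested genes. Of these 7, Myl4, Sln, Mybphl and Casq1 (4 genes) were called higher by the 2-fold rule, against 1.04% of all genes, and the 7 had a median difference of 1.93 on the log2 scale. Mybphl had 70.5, 29.8 and 17.1 CPM in libraries HFD+L-NAME 2, 3 and 4 and 26.2 and 28.5 CPM in chow 1 and 3, against 0.793 CPM in library HFD+L-NAME 1 and 0.347 and 0.800 CPM in chow 2 and 4. Casq1, the calcium store protein known best from fast skeletal fibres, had 21.8, 19.8 and 27.1 CPM in libraries HFD+L-NAME 2, 3 and 4 and 7.74 and 14.0 CPM in chow 1 and 3, against 5.83 CPM in library HFD+L-NAME 1 and 7.16 and 2.71 CPM in chow 2 and 4, a log2 difference of 1.43. Myl1 (0.86), Tnni1 (1.93) and Smpx (0.09) overlapped between the sets, and Tnni1 was below 1 CPM in every library. The genes of fast skeletal myosin, Myh1, Myh2 and Myh4, were at 0 to 0.190 CPM throughout. The summed level of the 12 skeletal muscle genes overlapped between the sets. It was 2574 to 3366 CPM in Myl7-high and 1903 to 3238 CPM in Myl7-low libraries. The sum includes Acta1 and Ckm, which heart muscle also expresses, so it cannot show whether skeletal muscle differed between the sets.

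Kinase, signalling and lipid genes listed as enriched in atria followed in part. Among 12 tested members, 5 were called higher and 7 did not overlap, against 1.04% and 5.14% of all genes. Sbk3 had 68.4, 39.5 and 22.3 CPM in libraries HFD+L-NAME 2, 3 and 4 and 42.0 and 29.8 CPM in chow 1 and 3, against 4.62 CPM in library HFD+L-NAME 1 and 2.26 and 4.10 CPM in chow 2 and 4, a log2 difference of 3.32. Its relative Sbk2 had 9.63 to 27.3 CPM in Myl7-high and 4.29 to 7.11 CPM in Myl7-low libraries (1.64). Fgf12, an intracellular fibroblast growth factor homologue that modulates sodium channels, had 24.0, 10.4 and 3.22 CPM in libraries HFD+L-NAME 2, 3 and 4 and 10.2 and 10.1 CPM in chow 1 and 3, against 0.191 CPM in library HFD+L-NAME 1 and 0.193 and 0.410 CPM in chow 2 and 4, a log2 difference of 5.30. Stard10 had 101, 70.3 and 47.6 CPM in libraries HFD+L-NAME 2, 3 and 4 and 57.1 and 49.3 CPM in chow 1 and 3, against 21.8 CPM in library HFD+L-NAME 1 and 24.6 and 24.5 CPM in chow 2 and 4, a log2 difference of 1.31. Clu, the clusterin gene, and the matrix protein gene Dpt did not overlap but differed by 0.32 and 0.38. Des, the desmin gene, overlapped (-0.05).

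Secretory genes other than the markers divided. Of 15 tested members of the list, 4 were called higher (Nppa, Bmp10, Dkk3 and Hamp), against 1.04% of all genes. With Pam and Cpe, 6 did not overlap, against 5.14% of all genes. Nppa, Bmp10 and Dkk3 are themselves markers, so Hamp was the only call outside the markers. Pam, which encodes the peptide-amidating enzyme that is a main membrane protein of atrial granules, had 1905, 1616 and 1198 CPM in libraries HFD+L-NAME 2, 3 and 4 and 1290 and 1273 CPM in chow 1 and 3, against 921 CPM in library HFD+L-NAME 1 and 865 and 978 CPM in chow 2 and 4, a log2 difference of 0.54. Hamp, the gene of the iron hormone hepcidin, lay at 0.266 to 1.58 CPM in Myl7-high and 0 to 0.137 CPM in Myl7-low libraries (3.20). Cpe, a carboxypeptidase gene of secretory granules, did not overlap at 317 to 372 CPM in Myl7-high and 291 to 312 CPM in Myl7-low libraries (0.10). Nppb, the gene of B-type natriuretic peptide, overlapped, with 306, 238 and 268 CPM in libraries HFD+L-NAME 2, 3 and 4 and 230.1 and 364 CPM in chow 1 and 3, against 76.9 CPM in library HFD+L-NAME 1 and 224 and 481 CPM in chow 2 and 4, and its lowest and highest levels were both in Myl7-low libraries. Corin (-0.16) and Furin (-0.20), which encode proteases that process natriuretic peptides, overlapped as well. Among granin genes, Scg3 (-0.01) and Chgb (-0.37) were tested and overlapped between the sets. Scg2, Scg5, Chga and Vgf had at most 0.146 CPM in any library, and all 4 were at 0 in the 3 Myl7-low libraries.

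Atrial transcription factor genes differed little in size. Of 15 tested, 13 had a positive difference, 6 lay higher without overlap (5.14% of all genes did), and only Shox2 was called higher. Shox2, a gene of the sinus node and pulmonary vein muscle, had 1.27 to 3.84 CPM in Myl7-high and 0.451 to 1.07 CPM in Myl7-low libraries (1.60). Tbx5 had 51.0, 55.3 and 36.0 CPM in libraries HFD+L-NAME 2, 3 and 4 and 37.7 and 37.0 CPM in chow 1 and 3, against 32.0 CPM in library HFD+L-NAME 1 and 26.9 and 26.0 CPM in chow 2 and 4, a log2 difference of 0.47. Nr2f1 (0.43), Meis2 (0.18), Foxc1 (0.60) and Nkx2-5 (0.11) were the other genes without overlap. Nr2f2, which is needed for atrial identity in mice, overlapped, with 10.4 to 19.2 CPM in Myl7-high and 10.9 to 14.9 CPM in Myl7-low libraries (-0.03), and Nr2f2 is also a gene of venous endothelium.

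No atrial channel or receptor gene was called higher or lower, and 5 of 18 lay higher without overlap, against 5.14% of all genes. These were the acetylcholine-gated potassium channel genes Kcnj3, at 112 to 135 CPM in Myl7-high and 86.4 to 103 CPM in Myl7-low libraries (0.36), and Kcnj5, at 131 to 166 CPM in Myl7-high and 92.2 to 107 CPM in Myl7-low libraries (0.46). The others were the connexin 40 gene Gja5, at 7.82 to 15.9 CPM in Myl7-high and 5.35 to 6.85 CPM in Myl7-low libraries (0.70), the T-type calcium channel gene Cacna1g, at 20.7 to 27.4 CPM in Myl7-high and 15.6 to 19.3 CPM in Myl7-low libraries (0.51), and the background potassium channel gene Kcnk3 (0.08). Kcna5, which carries the ultrarapid potassium current, overlapped at 22.3 to 39.0 CPM in Myl7-high and 24.9 to 33.5 CPM in Myl7-low libraries (-0.01), as did the muscarinic receptor gene Chrm2 (0.19). The list's median difference was 0.14.

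The conduction list was mixed. Of 22 tested members, 2 were called higher (1.04% of all genes were), 4 lay higher without overlap (5.14% of all genes did) and the median difference was 0.095. The 2 were Shox2 and Cpne5, a copine gene expressed in the Purkinje system, which had 5.94, 11.0 and 2.90 CPM in libraries HFD+L-NAME 2, 3 and 4 and 5.86 and 6.79 CPM in chow 1 and 3, against 0.739 CPM in library HFD+L-NAME 1 and 0.0193 and 0.308 CPM in chow 2 and 4, a log2 difference of 4.15. Both were already counted in atrial lists above, Shox2 among the transcription factors and Cpne5 among the genes enriched in atria. The pacemaker channel gene Hcn4 had 5.55 to 11.3 CPM in Myl7-high and 6.46 to 7.71 CPM in Myl7-low libraries (0.08). Cntn2, a cell adhesion gene of Purkinje fibres, overlapped with 2.82 to 14.5 CPM in Myl7-high and 1.74 to 4.35 CPM in Myl7-low libraries (1.26). Tbx3, which represses working muscle genes in the node, overlapped at 10.2 to 19.7 CPM in Myl7-high and 12.8 to 32.6 CPM in Myl7-low libraries (-0.62).

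Ventricular genes did not mirror the atrial ones. Of 18 tested members, 9 had a positive and 9 a negative difference, 1 lay higher without overlap (5.14% of all genes did, so the count is near that share), none passed the 2-fold limit and the median was -0.02 (0.041 with column totals alone). Myl2 had 5059, 4973 and 7350 CPM in libraries HFD+L-NAME 2, 3 and 4 and 7280 and 6526 CPM in chow 1 and 3, against 6880 CPM in library HFD+L-NAME 1 and 6918 and 7315 CPM in chow 2 and 4, so that HFD+L-NAME 2 and 3 alone were low, and HFD+L-NAME 4 was the highest of all. Myl3 had the same 2 low libraries, with 3898 to 5316 CPM in Myl7-high and 4857 to 5901 CPM in Myl7-low libraries (-0.21). Irx4, the ventricular transcription factor gene, overlapped at 30.4 to 37.1 CPM in Myl7-high and 25.4 to 42.4 CPM in Myl7-low libraries (0.07), and Pln at 5296 to 5898 CPM in Myl7-high and 5704 to 6396 CPM in Myl7-low libraries (-0.16). Myh7, the slow myosin heavy chain gene, had 258 to 1841 CPM in Myl7-high and 329.5 to 2106 CPM in Myl7-low libraries (0.05). The single gene without overlap was Cited4, a transcriptional cofactor gene, which was higher in the Myl7-high set at 14.98 to 22.3 CPM in Myl7-high and 11.9 to 13.2 CPM in Myl7-low libraries (0.50). Atp2a2, the calcium pump on which sarcolipin acts, was lower without overlap at 17364 to 19316 CPM in Myl7-high and 19672 to 21044 CPM in Myl7-low libraries, a log2 difference of -0.19 that stays under the 2-fold limit.

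Outside the lists, the genes averaging 1 CPM or more with the largest differences included several not named by chamber. Cilp2 had 15.9, 6.19 and 4.07 CPM in libraries HFD+L-NAME 2, 3 and 4 and 3.86 and 4.04 CPM in chow 1 and 3, against 0 CPM in library HFD+L-NAME 1 and 0 and 0.0205 CPM in chow 2 and 4, or 1372 counts in the Myl7-high libraries and 1 in the Myl7-low ones. Pooled over each set, the rates differed 922-fold, and the exact interval for counting error at 95% ran between 165 and 36446. Cd207, the langerin gene of dendritic cells, had 0.755, 1.17 and 0.798 CPM in libraries HFD+L-NAME 2, 3 and 4 and 3.30 and 2.25 CPM in chow 1 and 3 and no count in any Myl7-low library, and was at least 81.5-fold higher when 3 counts are allowed over that set. Tmem163, a zinc transporter gene, had 12.6, 5.14 and 1.60 CPM in libraries HFD+L-NAME 2, 3 and 4 and 3.36 and 4.95 CPM in chow 1 and 3, against 0.137 CPM in library HFD+L-NAME 1 and 0.116 and 0 CPM in chow 2 and 4, a log2 difference of 5.78. Sphkap, an anchor of protein kinase A, differed by 4.24, Lmntd1 by 3.69 and Fras1 by 3.24. Both Cilp2 and Tmem163 were highest in HFD+L-NAME 2, whereas Cd207 was highest in chow 1 and 3.

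Matrix genes mostly had a positive difference, by amounts far below those of the light chains. Of 27 collagen and fibrosis genes tested, 26 had a positive difference with a median of 0.46, 7 lay higher without overlap and 2 were called higher. Over all genes 49.9% were positive with a median of -0.00017, 5.14% lay higher without overlap and 1.04% were called higher. The 2 were Col12a1, at 1.58 to 6.69 CPM in Myl7-high and 0.579 to 0.923 CPM in Myl7-low libraries (1.94), and Timp1, at 1.57 to 4.41 CPM in Myl7-high and 0.615 to 0.965 CPM in Myl7-low libraries (1.59). The main fibrillar genes overlapped. Col1a1 had 160.2, 182 and 108 CPM in libraries HFD+L-NAME 2, 3 and 4 and 128 and 121 CPM in chow 1 and 3, against 65.9 CPM in library HFD+L-NAME 1 and 119.6 and 64.3 CPM in chow 2 and 4, and Col3a1 had 188 to 317 CPM in Myl7-high and 102 to 218 CPM in Myl7-low libraries (0.77), with chow 2 inside the range of the Myl7-high set for both. All 23 tested genes of elastic fibres and proteoglycans had a positive difference, with a median of 0.48, and 3 were called higher. These were Mfap4, a microfibril protein gene, at 8.75 to 21.6 CPM in Myl7-high and 3.94 to 7.68 CPM in Myl7-low libraries (1.15), Fmod, the fibromodulin gene, at 6.04 to 17.5 CPM in Myl7-high and 0.677 to 4.57 CPM in Myl7-low libraries (2.12), and Comp, a tendon and cartilage matrix gene, at 9.41 to 27.2 CPM in Myl7-high and 2.93 to 7.53 CPM in Myl7-low libraries (1.58). Without HFD+L-NAME 2 and 3 the median of this list was 0.31.

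Lists of other cell types differed in how they stood in the sets. Genes of valve and endocardium had a median difference of 0.96, with 11 of 13 positive, and their summed level was 147 to 249 CPM in the Myl7-high and 101 to 139 CPM in the Myl7-low libraries. Of these, at least Comp, Fmod and Hapln1 are shared with the list of elastic fibres and proteoglycans. Genes of the epicardium and mesothelium were positive in 12 of 12, against 49.9% of all genes, with a median of 1.37. Their summed level was 24.8 to 94.5 CPM in the Myl7-high and 18.7 to 40.0 CPM in the Myl7-low libraries, so the sets overlapped. The median was 0.12 within HFD+L-NAME and 2.68 within chow. Upk3b, a mesothelial marker, had 23.1, 7.33 and 5.05 CPM in libraries HFD+L-NAME 2, 3 and 4 and 34.4 and 35.8 CPM in chow 1 and 3, against 9.30 CPM in library HFD+L-NAME 1 and 6.42 and 2.81 CPM in chow 2 and 4, so HFD+L-NAME 3 and 4 lay among the Myl7-low libraries. Krt8 at 0.426 to 1.88 CPM in Myl7-high and 0.116 to 0.328 CPM in Myl7-low libraries (2.59) and Krt14 were the 2 genes called higher. Over all genes 1.04% were called higher. Krt14 was at 0.0532 to 0.557 CPM in the Myl7-high set and at 0 in the Myl7-low set, at least 15.5-fold higher over 3 counts. The difference between diets in this list was not tested. Fibroblast genes (median 0.23), endothelial genes (0.11) and smooth muscle genes (-0.02) had no member called. The 12 tested adipocyte genes were 6 positive and 6 negative (median 0.04), with a median of 0.54 in HFD+L-NAME and -0.03 in chow. The members with the largest differences were all positive, although the sets overlapped for each. They were Plin1 (1.94), Cfd (1.89), Adipoq (1.86), Car3 (1.42) and Cidec (1.21). Plin1 did not overlap within either diet (1.66 in chow and 2.29 in HFD+L-NAME). Whether these cell types contribute to single genes above was not tested.

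Genes of energy metabolism had small negative differences as groups. All 28 nuclear-encoded respiratory chain genes had a negative difference, with a median of -0.14, 5 of them without overlap (1.40% of all genes lay lower without overlap) and none at 2-fold. Atp5b, the beta subunit gene of ATP synthase, had 5794 to 6092 CPM in Myl7-high and 6118 to 6855 CPM in Myl7-low libraries (-0.18), and Cox7a1, a muscle cytochrome oxidase subunit gene, had 384 to 522 CPM in Myl7-high and 532 to 589.8 CPM in Myl7-low libraries (-0.24). All 18 citrate cycle genes were negative (median -0.12), as were 21 of 22 fatty acid oxidation genes (median -0.098) and 13 of 17 genes of glucose use (median -0.14). The insulin-responsive glucose transporter gene Slc2a4 was lower without overlap, at 334 to 478 CPM in Myl7-high and 486 to 546 CPM in Myl7-low libraries (-0.39). In Hadha, a subunit gene of the trifunctional protein of fatty acid oxidation, the sets overlapped, with 2903, 2896 and 2995 CPM in libraries HFD+L-NAME 2, 3 and 4 and 2025 and 2408 CPM in chow 1 and 3, against 2889 CPM in library HFD+L-NAME 1 and 2388 and 2425 CPM in chow 2 and 4, and the 4 HFD+L-NAME libraries lay above the 4 chow libraries in both sets. With column totals alone and no further scaling the median of all genes was 0.059 and the respiratory chain median was -0.079. In that fit 14 of the fatty acid oxidation genes and 10 of the glucose genes were negative. These signs were counted against 0 and not against the shifted median of all genes. In the main fit 49.9% of all genes had a positive difference.

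**Figure D4:**
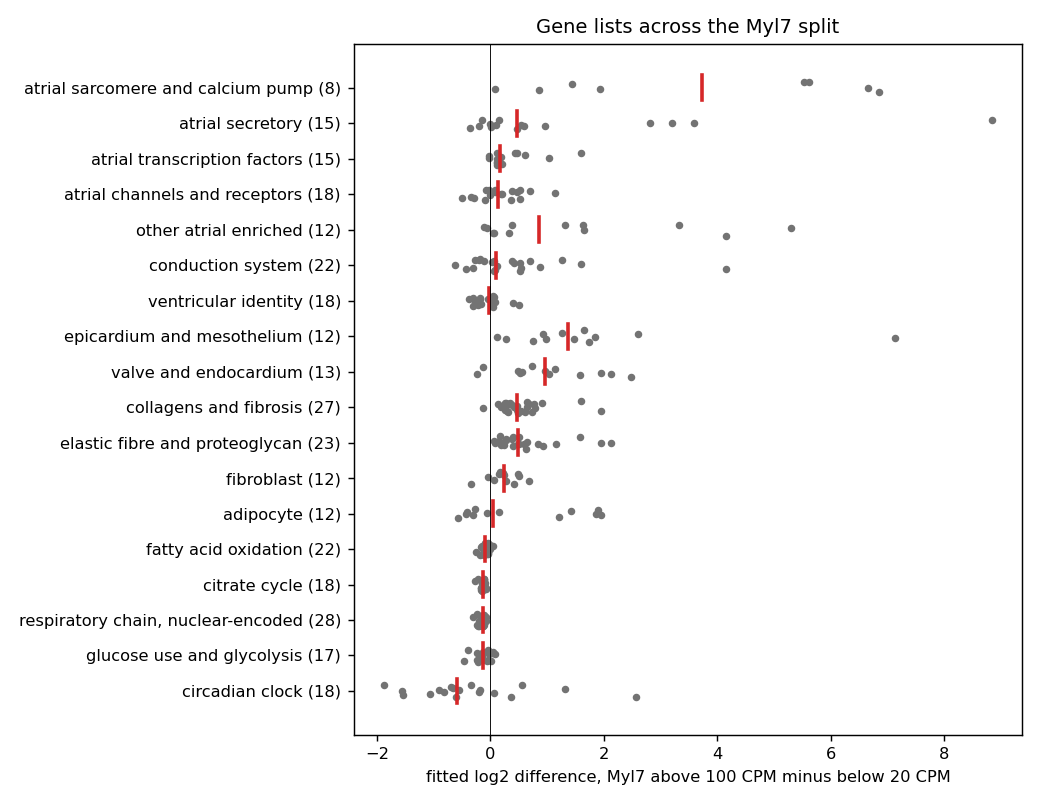
Fitted log2 difference of Myl7-high minus Myl7-low libraries for every tested member (grey points) of 18 gene lists, with the list median as a red bar and the number of tested members in brackets. Atrial sarcomere genes reach far to the right, matrix lists sit at medians of 0.46 and 0.48, and metabolic lists sit just left of 0.

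Clock genes, a list added after their values were seen, also included members called between the sets. Arntl, the gene of the clock activator BMAL1, had 7.48, 14.5 and 7.16 CPM in libraries HFD+L-NAME 2, 3 and 4 and 27.2 and 17.9 CPM in chow 1 and 3, against 1.29 CPM in library HFD+L-NAME 1 and 2.91 and 5.17 CPM in chow 2 and 4, a log2 difference of 2.57. Its partners Clock at 57.1 to 81.8 CPM in Myl7-high and 42.3 to 51.1 CPM in Myl7-low libraries (0.56) and Npas2 at 4.56 to 13.0 CPM in Myl7-high and 2.50 to 3.72 CPM in Myl7-low libraries (1.32) did not overlap. The repressor gene Per2 ran the other way at 29.0, 23.0 and 24.7 CPM in libraries HFD+L-NAME 2, 3 and 4 and 4.25 and 17.9 CPM in chow 1 and 3, against 51.4 CPM in library HFD+L-NAME 1 and 44.4 and 33.9 CPM in chow 2 and 4 (-1.54), and the clock output gene Dbp had 22.6 to 113 CPM in Myl7-high and 117 to 180.4 CPM in Myl7-low libraries (-1.56). Of 18 clock genes, 13 had a negative difference with a median of -0.58, and 2 were called in each direction. Over all genes 49.9% had a positive difference, 1.04% were called higher and 0.208% lower. The labels give no time of collection for these libraries. With log2 Per2 added as a covariate, the edgeR fit for diet with the split called 0 genes and 904 had an unadjusted p under 0.05, against 0 and 1630 without Per2. The differences between the sets were not refitted with it.

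**Figure D5:**
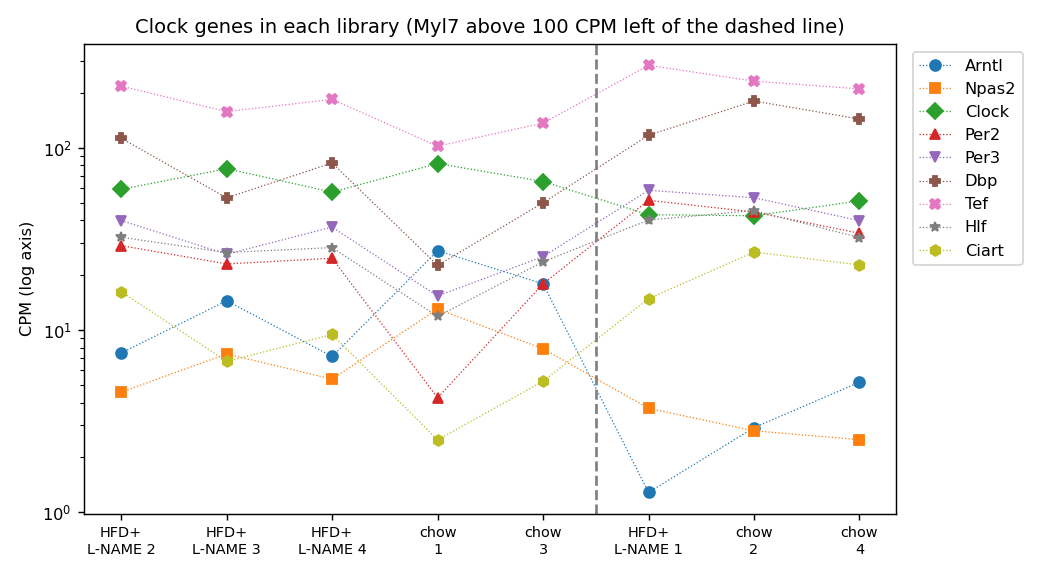
CPM (log axis) of 9 clock genes in each library, Myl7-high libraries left of the dashed line and Myl7-low libraries right. Arntl is at 7.16 to 27.2 CPM on the left and 1.29 to 5.17 CPM on the right, and chow 1 has the highest Arntl with the lowest Per2 at 4.25 CPM.

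Few of the genes tested were lower where Myl7 was high, and the filter left out genes present only in the Myl7-low libraries. Alb, the serum albumin gene, had 0.268, 0.666 and 0.133 CPM in libraries HFD+L-NAME 2, 3 and 4 and 0 and 0.143 CPM in chow 1 and 3, against 5.17 CPM in library HFD+L-NAME 1 and 1.06 and 17.7 CPM in chow 2 and 4, a log2 difference of -5.49 carried by chow 4 and HFD+L-NAME 1. The axon guidance genes Robo2, at 1.06 to 2.19 CPM in Myl7-high and 2.26 to 3.90 CPM in Myl7-low libraries (-1.31), and Sema5b, at 0.346 to 1.02 CPM in Myl7-high and 1.19 to 2.24 CPM in Myl7-low libraries (-1.29), the metallothionein gene Mt2, at 11.6 to 16.2 CPM in Myl7-high and 19.7 to 37.7 CPM in Myl7-low libraries (-1.04), and the ubiquitin ligase gene Trim36 (-1.03) were also called lower. Kcnj8, a potassium channel gene of pericytes, was lower without overlap at 21.4 to 26.3 CPM in Myl7-high and 30.1 to 36.7 CPM in Myl7-low libraries (-0.61). None of these is a ventricular marker in the lists used.

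The diet comparison asked which genes differ with HFD+L-NAME once the split is taken into account. With the split as a covariate, edgeR's quasi-likelihood test with Benjamini-Hochberg adjustment at 0.05 called 0 of 14875 genes, while 1630 (11.0%) had an unadjusted p under 0.05. DESeq2 called 322 in the same design and limma-voom 5. Without the split edgeR called 2 genes (0.0134%; 1422, or 9.56%, at an unadjusted p under 0.05), Tmem150c, which is linked to mechanically activated currents, and Ighg2c, an immunoglobulin gene. With the split both had an adjusted p of 0.0534 in edgeR, and the log2 fold change of Tmem150c was -1.06 ± 0.13 (SE), against -1.08 ± 0.13 without it. Ighg2c had 95, 105, 744 and 118 counts in HFD+L-NAME 1 to 4 and 0, 0, 1 and 0 counts in chow 1 to 4, so the size of its fitted fold change depends on the prior count and is not given. Within the 5 Myl7-high libraries, 3 HFD+L-NAME against 2 chow, edgeR again called 0 genes (1226 with an unadjusted p under 0.05, 8.24%; DESeq2 118, limma-voom 0).

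The atrial markers themselves were not called for diet. In the fit without the split the log2 fold change of HFD+L-NAME over chow was 1.07 ± 1.43 (SE) for Myl7 (edgeR adjusted p = 0.859), 1.03 ± 1.26 for Myl4 (0.841), 0.70 ± 1.36 for Sln (0.916), -1.04 ± 1.52 for Bmp10 (0.876), 0.69 ± 0.89 for Dkk3 (0.850) and 0.36 ± 0.79 for Nppa (0.927). The split was made from Myl7, which several of the other markers follow, so the values with it as a covariate are given without a p. They were 0.94 ± 0.38 for Myl4, 0.49 ± 0.41 for Sln, -1.58 ± 0.75 for Bmp10, 0.39 ± 0.30 for Dkk3 and -0.28 ± 0.43 for Nppa. Within the Myl7-high libraries the diets overlapped for Myl4, Sln, Dkk3 and Nppa. Bmp10 did not overlap there, with 2.63 to 68.5 CPM on HFD+L-NAME and 76.7 and 133 CPM on chow, and its log2 fold change was -1.62 ± 0.79 (SE). Without HFD+L-NAME 2 it was -1.07. With 3 libraries against 2, an absence of overlap is easily reached, and its share over all genes was not computed.

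An interaction of diet and split was also fitted. Its Myl7-low HFD+L-NAME arm is the single library HFD+L-NAME 1, which is assumed to vary like the others, so a call cannot tell that mouse from the split. EdgeR called 9 genes (0.0605%; 949 with an unadjusted p under 0.05, DESeq2 65 and limma-voom 4). In 8 of the 9 genes HFD+L-NAME 1, the lone Myl7-low library on that diet, lay outside all 7 others. Ogdhl, a relative of the citrate cycle enzyme gene Ogdh, had 176, 302 and 317 CPM in libraries HFD+L-NAME 2, 3 and 4 and 377 and 305 CPM in chow 1 and 3, against 4.27 CPM in library HFD+L-NAME 1 and 302 and 305 CPM in chow 2 and 4. The ninth gene was Pttg1, which was low in chow 2 and 4 as given above. None of the 6 atrial markers was among the 9.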

How the data were processed

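RNA of 8 mouse left ventricles was sequenced, and the count table that the authors deposited holds raw counts, with 1 column per mouse. The submitters' processing notes list STAR 2.6, Trim Galore 0.4.0, bcl2fastq 1.8.4 and DESeq2 1.22.1. How reads were counted, and whether by strand, is not given in the sources used, so reads of genes overlapping in antisense cannot be told apart. Those notes list a human build, but the gene IDs belong to the C57BL/6NJ annotation. Gene names were read from the authors' deposited table of comparisons, whose values were not used. Of 41096 rows, 22403 had a count and 14875 passed edgeR's filterByExpr (minimum count 10, by diet), of which 13782 have a name. Unnamed rows took 9.19% to 10.5% of each library and stayed in. Total counts per library ranged from 31522074 to 52053633.

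CPM values are counts over the column total. Libraries were sorted by Myl7 CPM (over 100, or under 20). Differences between the sets are log2 coefficients of an edgeR 4.0.16 fit in R 4.3.3 with TMM factors and diet as covariate, and no test is given for them. A gene is called higher or lower where it differed at least 2-fold and the CPM of the sets did not overlap. Diet was tested with edgeR's quasi-likelihood test with and without the split, within the Myl7-high libraries, and as an interaction, adjusted over all genes at 0.05. Standard errors are the log2 fold change over the square root of F. Replicates were numbered by accession and not paired, and p-values measure the spread between these mice. The scripts were tested on simulated data.

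The libraries, gene lists and motifs were chosen with earlier results of these data known. Named are the 6 markers, up to 15 genes per direction without overlap that average 1 CPM or more, up to 5 members with the largest difference per list, a set of heart genes, the 10 closest followers of Myl7 and genes past a diet threshold. Other genes named were chosen after their values were seen. Alternatives were DESeq2 1.42.0, limma-voom (limma 3.58.1), other filters, scalings and fold limits, log2 Myl7 as covariate, single diets and leaving out libraries. Fits with log2 Per2, with column totals alone and without HFD+L-NAME 1, 2 and 3 were added after seeing the data. Single values of a few list members are not reported here.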

Additional observations from a re-analysis of the deposited data

Results flagged for a closer look

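Dixon's gap over range was used to look for a sample far from the others of its group. It was computed within each diet in 134 groups of 4 libraries, and 8 were flagged. Chance flags about 1 in 20 for genes chosen without regard to their values, whereas many of these were chosen by the Myl7 split. Alb stood apart in HFD+L-NAME 1 within its diet (0.894, at 5.17 CPM) and in chow 4 (0.940, at 17.7 CPM). HFD+L-NAME 1 was also the highest library of its diet for Mt2 (0.864, at 37.7 CPM) and for Ell2, a transcription elongation factor gene (0.930, at 43.3 CPM). Chow 2 was highest for Trim36 (0.837, at 2.93 CPM), and chow 4 lowest for Col1a1 (0.875, at 64.3 CPM). Alb, Mt2, Ell2 and Trim36 were named because they were higher without overlap in the Myl7-low set. That HFD+L-NAME 1, the lone Myl7-low library of its diet, was highest for Alb, Mt2 and Ell2 was fixed by that choice.

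Ighg2c was highest in HFD+L-NAME 3, at 23.6 CPM (0.972). Chow 3 was the lone chow library with an Ighg2c count (1.00, at 0.0239 CPM). EdgeR's interaction of diet and split called 9 genes, with 1 library in the Myl7-low HFD+L-NAME arm. In 8 of these that library lay outside all others, so the calls cannot tell 1 mouse from the split.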

How the results depend on the processing

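None of the 37 called genes among the 164 followed changed sign under any alternative run. A call requires a 2-fold difference without overlap, which largely fixes the sign in advance, so this adds no support to the calls. Of the uncalled genes 31 changed sign, among them Nppb, Myh7, Nr2f2, Kcna5, Irx4, Corin and Hcn4. The lung list (1 gene tested, -0.97) was 0.23 and the erythrocyte list (1 gene, -0.67) 0.26 in chow alone, and brown adipocyte genes (-0.15) were 0.0092 with no filter. The small medians of the skeletal muscle, smooth muscle, adipocyte, lymphatic, creatine kinase and ventricular lists also changed sign in at least 1 setting. For genes, 3105 values moved by less than the standard error of the main fit and 323 by more. For lists, 595 values moved by less than the median standard error of their members and 34 by more. The counts of higher and lower genes moved more. They were 155 and 31, and became 214 and 90 with no filter, 74 and 9 at a mean of at least 1 CPM, 258 and 66 at 1.5-fold, 68 and 6 at 4-fold, and 209 and 128 when HFD+L-NAME 2 and 3 were left out. The counts were 500 and 305 in chow alone, 928 and 368 in HFD+L-NAME alone, and 369 and 230 without HFD+L-NAME 1, 2 and 3. The share of higher genes was 83.3%, against 70.4% with no filter, 62.1% in chow alone, 71.6% in HFD+L-NAME alone and 61.6% without HFD+L-NAME 1, 2 and 3. Fewer libraries make an absence of overlap easier, and the single-library runs gave 177 to 331 higher and 38 to 98 lower genes. The higher count moved over 1.5 times without chow 2 (331), chow 4 (273) or HFD+L-NAME 1 (289), and the lower count also without HFD+L-NAME 2 (65).

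Diet calls depended on the tool and filter, and the cause was not tested. With the split, 0 became 571 with no filter, 322 with DESeq2 and 5 with limma-voom, and 0 to 4 without single libraries (4 without chow 3 or HFD+L-NAME 3). Without the split, 2 became 34, 165 and 0, and 0 to 3 without single libraries, with 0 without chow 1, 2 or 4 or HFD+L-NAME 2 or 4. Within the Myl7-high libraries, 0 became 390 with no filter and 118 with DESeq2, and 0 to 13 without single libraries. The 13 came without chow 3, where the lone chow library is assumed to vary like the others. The interaction count of 9 became 235 with no filter, 65 with DESeq2, 4 with limma-voom and 2 to 22 without single libraries, being 2 without chow 1, 5 without HFD+L-NAME 4, 16 without chow 4 and 22 without HFD+L-NAME 2. It could not be fitted without HFD+L-NAME 1.

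Directions of the markers' uncalled diet differences were unstable. With log2 Myl7 in place of the split, Myl4 went to -0.11, Sln to -0.30 and Dkk3 to -0.20. Without the split, Bmp10 was 0.48 with limma-voom, and without single libraries it ran from -2.11 to 0.0093 (without chow 3) and Nppa from -0.60 (without HFD+L-NAME 2) to 0.77. Within the Myl7-high libraries, runs without single libraries gave -0.17 to 0.77 for Myl7, -0.27 to 0.77 for Myl4, -0.30 to 0.57 for Sln and -0.10 to 0.44 for Dkk3, each lowest or near it without HFD+L-NAME 2 (for Sln and Dkk3 also -0.23 and -0.10 without chow 3). Nppa ran from -0.92 to 0.34 and was 0.16 without HFD+L-NAME 3. No paired analysis was possible because the labels carry no replicate numbers that pair mice across diets. Counts of 15 or fewer, as for Bmp10 in the Myl7-low libraries, limit the size of its difference.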

Other observations

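Some genes outside the atrial lists also varied between the libraries. Ucp1, the uncoupling protein gene of brown fat, reached 11.9 CPM in library HFD+L-NAME 2 and 5.27 CPM in library HFD+L-NAME 3, against 0 in HFD+L-NAME 1 and 4 and 0 to 0.335 CPM in the chow libraries. Acta1, the skeletal alpha-actin gene, had 719 to 1379 CPM in libraries HFD+L-NAME 2, 3 and 4 and 308 and 825 CPM in chow 1 and 3, against 69.0 CPM in library HFD+L-NAME 1 and 692 and 707 CPM in chow 2 and 4. Ppargc1a, a coactivator gene of mitochondrial genes, was highest in HFD+L-NAME 1 at 522 CPM, against 97.0 to 191 CPM in the other 7 libraries. Vwf, the von Willebrand factor gene, had 302, 150 and 116 CPM in libraries HFD+L-NAME 2, 3 and 4 and 236 and 128 CPM in chow 1 and 3, against 73.9 CPM in library HFD+L-NAME 1 and 95.5 and 235 CPM in chow 2 and 4. Nnt, the transhydrogenase gene named in the series design, was at 1159 to 1961 CPM in the Myl7-high and 1483 to 1965 CPM in the Myl7-low libraries.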
